A study of Mus musculus with 56 samples.

Results

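The 10 genes described here form the core of the GSK3 and beta-catenin pathway: Gsk3a, Gsk3b, Frat1, Frat2, Axin1, Axin2, Apc, Ctnnb1, Lef1 and Tcf7l2. They were picked by name as the pathway that lithium acts on, with earlier results of these data known. All 10 were among the 18088 genes of the deposited expression table. RNA was sequenced from the prefrontal cortex of 56 mice of strain C57BL/6J on postnatal day 25. The HT mice were heterozygous for Scn2a, which encodes the sodium channel Nav1.2, and the others were wild type (WT). Pups received lithium, fluoxetine or vehicle in their mother's milk from day 3 to day 24. There were 10 HT lithium, 9 HT fluoxetine and 10 HT vehicle libraries, and 9 each of WT lithium, WT fluoxetine and WT vehicle, with both sexes in every group. The labels name no dam, litter or dose. Pups of a group may therefore have shared a mother, and the p-values measure the spread among these libraries only.

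GSK3 is a pair of closely related protein kinases, made from the genes Gsk3a and Gsk3b, that are active in resting cells. Together with the scaffold proteins Axin and APC, GSK3 phosphorylates beta-catenin and so marks it for destruction. When a Wnt ligand binds its receptors, or when lithium inhibits GSK3 directly, beta-catenin protein accumulates and enters the nucleus, where it works with TCF and LEF factors to switch on target genes such as Axin2. RNA sequencing measures none of the protein steps, only the transcripts of these genes.

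Read depth ran from 24.3 to 36.4 M reads per library. Values below are normalised reads, that is, read counts scaled by a size factor for each library. Scn2a averaged 8554 ± 423 normalised reads in HT libraries (SD, n = 29) and 12311 ± 780 in WT libraries (SD, n = 27), and the lowest WT library (9727) lay above the highest HT library (9619). Markers of cortical excitatory neurons were abundant throughout, with a summed value of at least 149966 normalised reads in every library. In 21 libraries, however, the mean marker score for olfactory bulb or striatum, regions next to the prefrontal cortex, was more than 1 log2 unit above the median library. Those 21 were spread over all 12 groups of genotype, treatment and sex. For the core pathway genes, lithium calls in each genotype or averaged over both that change without these libraries are given both ways below. Calls for other pathway genes and for marker genes, and calls within a sex, are given with all libraries only. Bulk tissue was sequenced, so fewer cells of a type and less RNA per cell cannot be told apart.

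The sequences just upstream of the start sites are shown for Ctnnb1 and for Frat1 and Frat2, because beta-catenin and Frat1 had the firmest lithium changes and because Frat1 and Frat2 are neighbours on chromosome 19. Each window holds the 250 bases before a RefSeq start, written 5′ to 3′ on the gene's own strand, from RefSeq on GRCm38.p6. The Ctnnb1 window is chr9:120933150-120933399 on the plus strand. It belongs to the first of 2 RefSeq starts of Ctnnb1, both of which lie inside the longer span that GENCODE gives for the gene. The Frat1 window is chr19:41829720-41829969 on the plus strand and the Frat2 window is chr19:41848133-41848382 on the minus strand. Capitals mark stretches of 11 or more bases that the Frat1 and Frat2 windows share letter for letter, and the Ctnnb1 window has no capitals because it was not part of that search.
Ctnnb1: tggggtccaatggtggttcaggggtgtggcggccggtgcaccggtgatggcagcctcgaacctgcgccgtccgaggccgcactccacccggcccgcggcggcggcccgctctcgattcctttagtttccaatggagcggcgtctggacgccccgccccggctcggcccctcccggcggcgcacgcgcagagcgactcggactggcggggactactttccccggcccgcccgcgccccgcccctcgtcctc
Frat1: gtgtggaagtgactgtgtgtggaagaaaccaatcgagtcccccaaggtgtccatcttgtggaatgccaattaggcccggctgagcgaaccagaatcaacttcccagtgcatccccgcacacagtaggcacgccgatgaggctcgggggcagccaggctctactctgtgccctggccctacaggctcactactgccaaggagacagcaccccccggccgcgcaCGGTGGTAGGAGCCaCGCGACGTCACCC
Frat2: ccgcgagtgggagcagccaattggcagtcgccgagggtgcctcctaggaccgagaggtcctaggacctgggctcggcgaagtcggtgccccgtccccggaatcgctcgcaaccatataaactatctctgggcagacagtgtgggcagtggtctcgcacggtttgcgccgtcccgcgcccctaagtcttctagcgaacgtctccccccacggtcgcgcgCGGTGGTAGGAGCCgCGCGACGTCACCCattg

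The search found 2 shared stretches. CGGTGGTAGGAGCC, of 14 bases, covers positions 28 to 15 before the Frat1 start and 32 to 19 before the Frat2 start. CGCGACGTCACCC, of 13 bases, covers positions 13 to 1 before the Frat1 start and 17 to 5 before the Frat2 start. Each stretch, on either strand, was present in 2 of 32851 mouse promoter windows, those of Frat1 and Frat2. The starts of Frat1 and Frat2 lie 18162 bases apart on opposite strands. The search for shared stretches was chosen after the sequences were seen, and it is a description of the letters only. The TCF/LEF motif CTTTGAT was searched on both strands of the windows found for 8 of the 10 genes, 13 windows in all. It was in 0 of the 13, against 3.21% of all windows, which says only that these letters are not in these short stretches.

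The transcripts of the 10 genes covered a wide range of levels. Per kilobase of exon, the level averaged over the 56 libraries was highest for Ctnnb1, at 3238 ± 244 normalised reads per kilobase (SD, n = 56). Gsk3a followed at 2301 ± 86.4 and Apc at 1962 ± 244, with overlapping ranges, although Gsk3a was the higher of the pair in 49 of 56 libraries. Gsk3b had 699.9 ± 47.7 normalised reads per kilobase, below every library's Apc level. Axin1 (182.5 ± 8.3) and Axin2 (156.3 ± 10.6) came next, with overlapping ranges and Axin1 higher per kilobase in 56 of 56 libraries. Frat1 (79.6 ± 13.5) and Frat2 (71.5 ± 10.5) overlapped, and so did Lef1 (22.2 ± 3.2) and Tcf7l2 (17.7 ± 3.5), the lowest of the 10 on this scale. The other neighbours in this order did not overlap. The order depends on the length used, the union of all annotated exons and not the transcripts expressed (3828 bases for Axin1, 5506 for Axin2). Before division by length, Axin2 averaged 860.8 normalised reads and Axin1 698.7, while Gsk3b averaged 6880.8 and Gsk3a 6672.5.

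**Figure D1:**
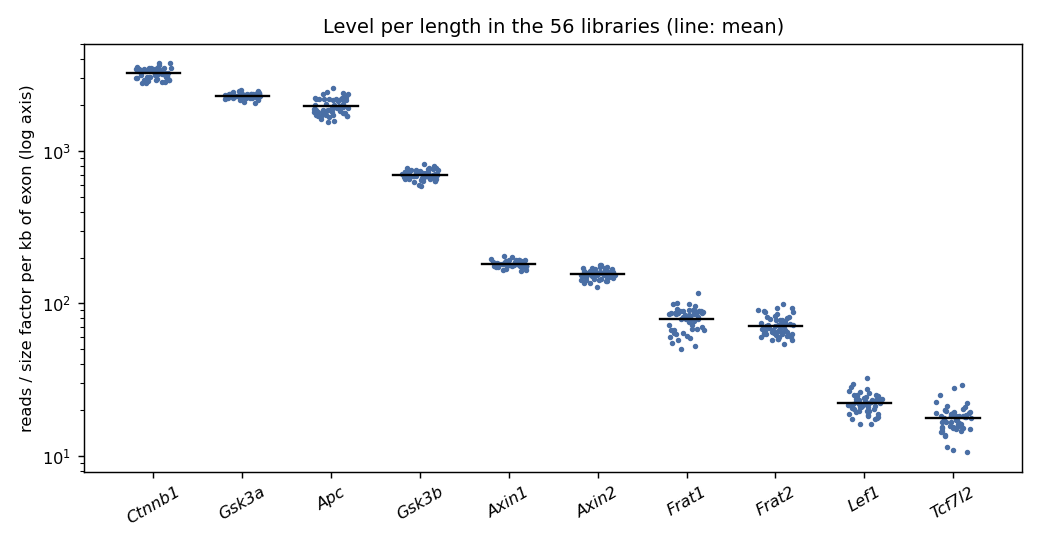
Level of each gene in normalised reads per kilobase of exon (log axis), with a point for each of the 56 libraries and a line at the mean. Ctnnb1 averaged 3238 and Tcf7l2 17.7, and overlapping neighbours such as Frat1 and Frat2 are visible as clouds at the same height.

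The transcript of beta-catenin itself was lower under lithium. In HT mice Ctnnb1 fell by 16.2% and in WT mice by 11%, and no lithium library overlapped a vehicle library of its genotype. The share of all genes with such separation was not counted, here or for the genes below. Frat1, whose protein binds GSK3 and keeps it away from Axin, fell in both genotypes by a larger fraction. Apc, which encodes a scaffold of the destruction complex, also fell in both. Frat2, the gene of another GSK3 binding protein, was called lower in WT mice and missed the threshold in HT mice. The kinase genes Gsk3a and Gsk3b, the scaffolds Axin1 and Axin2, and the nuclear factors Lef1 and Tcf7l2 passed the threshold in neither genotype. A gene was called when limma's moderated test gave a Benjamini-Hochberg adjusted p below 0.05 over the 17778 genes tested. In HT mice 3 of the 10 genes were called, all lower, against 8.77% of all genes called in either direction and 4.13% called lower. In WT mice 4 of 10 were called, all lower, against 5.71% of all genes called and 1.88% called lower. The median change of the 10 was -0.08 on the log2 scale in HT mice and -0.13 in WT mice, against medians of -0.001 and 0.002 over all genes tested. Because the 10 were chosen with earlier results of these data known, such contrasts with all genes, here and below, are description and not a test.

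**Figure D2:**
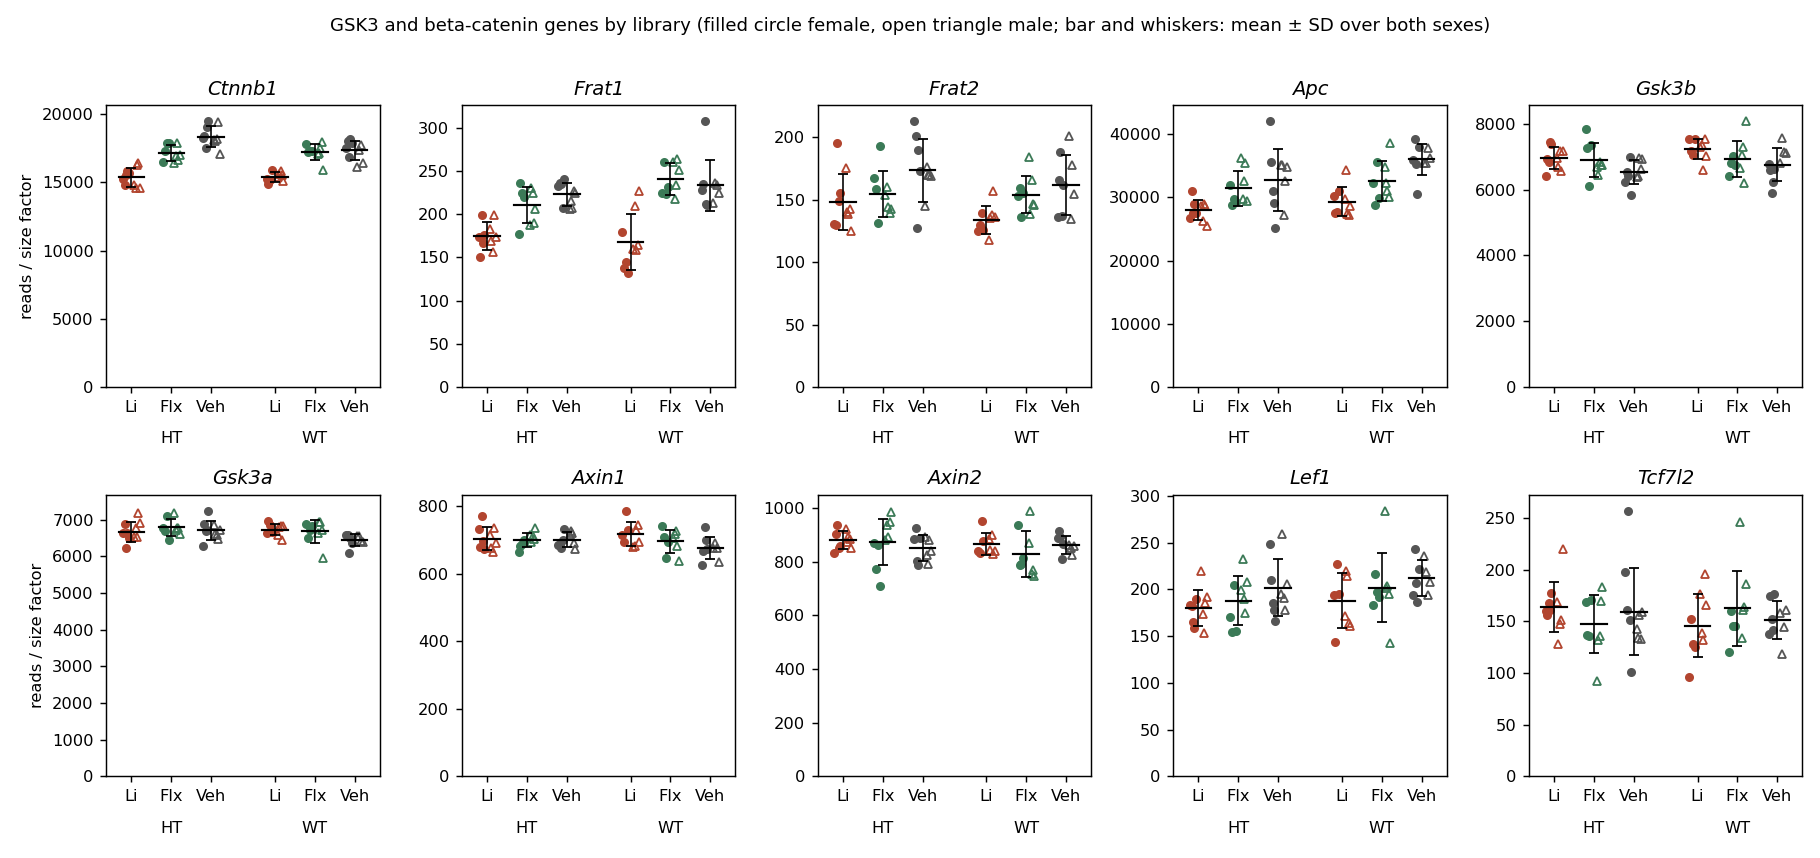
Normalised reads of the 10 genes in each library, by treatment (Li lithium, Flx fluoxetine, Veh vehicle) within HT and WT mice; filled circles are females, open triangles males, and bars with whiskers the mean ± SD over both sexes. Ctnnb1 in lithium libraries lies at 14559 to 16393 in HT and 14890 to 15921 in WT mice, below all vehicle libraries of the same genotype.

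Ctnnb1 (ENSMUSG00000006932) lies on chromosome 9, at 120929216 to 120960507 of GRCm38, on the plus strand. Its normalised reads in HT mice had a lowest, median and highest value of 14559, 15380 and 16393 under lithium, 16401, 16996 and 17878 under fluoxetine, and 17081, 18181 and 19465 under vehicle. In WT mice they were 14890, 15355 and 15921 under lithium, 15899, 17285 and 17926 under fluoxetine, and 16136, 17509 and 18144 under vehicle. All 10 HT and all 9 WT lithium libraries lay below every vehicle library of their genotype. The lithium change was -0.26 ± 0.03 on the log2 scale in HT mice (SE, limma adjusted p = 2.3e-09), the smallest p of all genes tested. In WT mice it was -0.17 ± 0.03 (SE, limma adjusted p = 2.0e-04), the 7th smallest. Every lithium library was below the mean of the vehicle libraries of its genotype and sex.

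In WT mice that call missed the threshold without the 21 libraries rich in olfactory or striatal transcripts, where the change was -0.14 (limma adjusted p = 0.052). In HT mice Ctnnb1 without them changed by -0.26 (limma adjusted p = 3.4e-04). The gene body of Ctnnb1 overlaps Ulk4 and the antisense gene 4930593C16Rik on the opposite strand. The library kit keeps strand, but how strand was used in counting is not given in the sources used here. Ulk4 had 90.9 to 206.5 normalised reads, far fewer than Ctnnb1.

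Frat1 (ENSMUSG00000067199) lies on chromosome 19 at 41829970 to 41832583, plus strand. Its normalised reads in HT mice had a lowest, median and highest value of 150.3, 174.0 and 199.0 under lithium, 176.9, 219.3 and 236.1 under fluoxetine, and 205.7, 226.0 and 240.1 under vehicle. In WT mice they were 132.3, 159.6 and 227.2 under lithium, 217.9, 233.7 and 263.3 under fluoxetine, and 210.1, 228.0 and 307.2 under vehicle. All 10 HT and 8 of 9 WT lithium libraries lay below every vehicle library of their genotype. Frat1 fell by 21.7% in HT mice, a log2 change of -0.35 ± 0.07 (SE, limma adjusted p = 8.4e-04). It fell by 29.2% in WT mice, a log2 change of -0.50 ± 0.07 (SE, limma adjusted p = 4.8e-05), with the 3rd smallest p of all genes tested. Both calls held in every alternative analysis, including the one without the 21 libraries.

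Frat2 (ENSMUSG00000047604) lies at 41845972 to 41848132 on the minus strand of chromosome 19. Its normalised reads in HT mice were 124.6, 141.3 and 195.1 under lithium (lowest, median, highest), 131.7, 154.1 and 192.7 under fluoxetine, and 127.1, 171.7 and 212.7 under vehicle. In WT mice they were 117.8, 135.1 and 156.7 under lithium, 136.2, 153.0 and 184.3 under fluoxetine, and 134.7, 161.4 and 200.7 under vehicle. The groups overlapped in both genotypes, with 1 of 10 HT and 4 of 9 WT lithium libraries below every vehicle library. The log2 change was -0.22 ± 0.08 in HT mice (SE, limma adjusted p = 0.073) and -0.27 ± 0.09 in WT mice (SE, limma adjusted p = 0.0488). The WT call was lost in 38 of 56 fits that left out a single library, where the change stayed between -0.32 and -0.23, and in 6 of 12 other alternatives, with adjusted p up to 0.33. Without the 21 libraries Frat2 changed by -0.37 in HT mice, where it was then called (limma adjusted p = 0.026), and by -0.25 in WT mice (limma adjusted p = 0.2). With the olfactory, striatal and thalamic marker scores as covariates it changed by -0.22 in HT mice, again called (limma adjusted p = 0.037), and by -0.16 in WT mice (limma adjusted p = 0.27). Frat1 and Frat2 are related genes, and 6.31% of the 31-base words in the Frat1 transcript also occur in Frat2. For Frat2 that share was 7.66%, so a part of the reads of each gene could have been assigned to the other.

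Apc (ENSMUSG00000005871) lies on chromosome 18 at 34220924 to 34322552, plus strand. Its normalised reads in HT mice were 25408, 28078 and 30950 under lithium (lowest, median, highest), 28842, 29745 and 36152 under fluoxetine, and 25118, 33723 and 42002 under vehicle. In WT mice they were 27134, 28612 and 34253 under lithium, 28713, 32214 and 38564 under fluoxetine, and 30582, 35972 and 39263 under vehicle. In WT mice 7 of 9 lithium libraries were below every vehicle library, whereas in HT mice 0 of 10 were, the lowest HT vehicle library having 25118. Apc fell by 14% in HT mice, a log2 change of -0.22 ± 0.06 (SE, limma adjusted p = 0.019). It fell by 18.8% in WT mice, a log2 change of -0.30 ± 0.07 (SE, limma adjusted p = 0.0054). Neither call held without the 21 libraries, where the change was -0.19 in HT mice (limma adjusted p = 0.13) and -0.28 in WT mice (limma adjusted p = 0.067).

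Changes of the GSK3 genes themselves were small and did not pass the threshold in either genotype. Gsk3b (ENSMUSG00000022812, chromosome 16, 38089001 to 38246084, plus strand) had median normalised reads of 6938 under lithium, 6763 under fluoxetine and 6481 under vehicle in HT mice. In WT mice the medians were 7292, 6808 and 6774 in the same order of treatments. The ranges overlapped in both genotypes. The lithium change was 0.09 ± 0.04 in HT mice (SE, limma adjusted p = 0.13) and 0.09 ± 0.04 in WT mice (SE, limma adjusted p = 0.15). Gsk3a (ENSMUSG00000057177, chromosome 7, 25228258 to 25237851, minus strand) had medians of 6628 under lithium, 6783 under fluoxetine and 6705 under vehicle in HT mice. In WT mice these were 6787, 6720 and 6498. Its lithium change was -0.01 (95% interval -0.06 to 0.04) in HT mice and 0.06 (0.01 to 0.12) in WT mice, with limma adjusted p of 0.9 and 0.15.

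Axin2 is widely used as a readout of beta-catenin signalling, since its gene is a direct target. Axin2 (ENSMUSG00000000142, chromosome 11, 108920349 to 108950783, plus strand) had median normalised reads of 877.5 under lithium, 881.0 under fluoxetine and 861.6 under vehicle in HT mice, and 844.2, 792.7 and 863.1 in WT mice. Its lithium change was 0.05 (95% interval -0.03 to 0.13) in HT mice and 0.01 (-0.08 to 0.10) in WT mice, with limma adjusted p of 0.5 and 0.93. Axin1, the other scaffold (ENSMUSG00000024182, chromosome 17, 26138688 to 26195811, plus strand), had medians of 693.3, 701.0 and 694.4 in HT mice and 713.8, 704.6 and 674.8 in WT mice. All 9 WT lithium libraries were above the mean of their vehicle group for Axin1, but the change of 0.09 ± 0.03 did not pass the threshold (SE, limma adjusted p = 0.079). In HT mice the Axin1 change was 0.006 (95% interval -0.055 to 0.066, limma adjusted p = 0.94), with 5 of 10 lithium libraries above that mean.

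Lef1 and Tcf7l2, the DNA-binding partners of beta-catenin, had the widest intervals of the 10 genes. Lef1 (ENSMUSG00000027985, chromosome 3, 131110471 to 131224356, plus strand) had median normalised reads of 182.9 under lithium, 189.4 under fluoxetine and 192.9 under vehicle in HT mice, and 194.5, 197.4 and 207.6 in WT mice. Its lithium change was -0.15 (95% interval -0.33 to 0.02) in HT mice and -0.18 (-0.37 to 0.01) in WT mice, with limma adjusted p of 0.29 and 0.25. Tcf7l2 (ENSMUSG00000024985, chromosome 19, 55741820 to 55933654, plus strand) ranged over all 56 libraries from 92.7 to 256.7 normalised reads, the largest relative spread of the 10 genes. Its lithium change was 0.07 (95% interval -0.17 to 0.30) in HT mice and -0.09 (-0.34 to 0.16) in WT mice, intervals that take in changes of either sign.

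Averaged over both genotypes, 5 of the 10 genes were called under lithium, against 16.2% of all genes. Ctnnb1 (-0.21 ± 0.02, limma adjusted p = 2.6e-11) had the smallest p of all genes tested. Frat1 (-0.43 ± 0.05, limma adjusted p = 5.1e-08), Apc (-0.26 ± 0.04, limma adjusted p = 6.2e-05) and Frat2 (-0.25 ± 0.06, limma adjusted p = 0.0026) were also lower. Gsk3b was higher by 0.09 ± 0.03 on the log2 scale (SE, limma adjusted p = 0.016), a rise of 6.7%. Without the 21 libraries the Gsk3b change had the same size, 0.09, but was not called (limma adjusted p = 0.14). With the endothelial, microglial and meningeal marker scores as covariates it was 0.05 (limma adjusted p = 0.34).

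The lithium effect was not shown to differ between the genotypes. The interaction test called 0 of the 10 genes and 0 of all 17778 (0%), with 1934 of all genes and 1 of the 10 at an unadjusted p below 0.05. That gene was Ctnnb1, which fell more in HT mice, by a further -0.09 on the log2 scale (95% interval -0.16 to -0.01, limma adjusted p = 0.39). HT minus WT, Ctnnb1 differed by -0.003 under lithium (limma adjusted p = 0.98) and by 0.08 under vehicle (limma adjusted p = 0.25). On recovered reads, edgeR and DESeq2 called 0 of the 10 in this test, and 0 and 4 of all genes. The Frat1 difference between genotypes was 0.14 (95% interval -0.05 to 0.34, limma adjusted p = 0.59).

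Both sexes were then set side by side. Ctnnb1 changed by -0.26 in HT females (limma adjusted p = 2.9e-05), -0.25 in HT males (limma adjusted p = 1.1e-04), -0.21 in WT females (limma adjusted p = 0.012) and -0.13 in WT males (limma adjusted p = 0.12). Frat1 changed by -0.41 in HT females (limma adjusted p = 0.027), -0.30 in HT males (limma adjusted p = 0.13), -0.68 in WT females (limma adjusted p = 3.6e-04) and -0.32 in WT males (limma adjusted p = 0.16). Those calls, 2 of the 10 genes in HT females, 1 in HT males, 2 in WT females and 0 in WT males, stand beside 0.99%, 0.546%, 0.799% and 0.208% of all genes called in these 4 tests. The test of the difference between males and females called 0 of the 10 genes in either genotype and 0 of all genes (0%). Gsk3b changed by 0.13 in HT females (limma adjusted p = 0.21), 0.05 in HT males (limma adjusted p = 0.74), 0.19 in WT females (limma adjusted p = 0.072) and -0.001 in WT males (limma adjusted p = 1). Its difference, male minus female, was -0.19 in WT mice (95% interval -0.35 to -0.03, limma adjusted p = 0.74). The largest such difference for Frat1 was 0.36, in WT mice (95% interval 0.07 to 0.65, limma adjusted p = 0.74), where 2 of the 10 genes and 1172 of all genes had an unadjusted p below 0.05. In HT mice 0 of the 10 and 481 of all genes did. On recovered reads, edgeR called 0 of the 10 and 0 of all genes in both sex tests, and DESeq2 called 0 of the 10 in both, with 1 gene of all in HT mice.

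Fluoxetine, a serotonin reuptake inhibitor, moved none of the 10 genes past the threshold. It called 0 of 10 in HT mice, where 0.045% of all genes were called, and 0 of 10 in WT mice, where 0.146% were. At an unadjusted p below 0.05 there were 2 of the 10 in HT mice and 1 in WT mice, beside 1521 and 1929 of all genes, and edgeR and DESeq2 on recovered reads also called 0 of the 10 in each. Ctnnb1 in HT mice was below the mean of its vehicle group in 9 of 9 fluoxetine libraries, with a log2 change of -0.09 ± 0.03 that did not survive adjustment (SE, unadjusted p = 6.5e-04, limma adjusted p = 0.27). In WT mice the Ctnnb1 change was -0.003 ± 0.03 (SE, limma adjusted p = 0.98). Gsk3b in HT mice changed by 0.08 ± 0.04 (SE, limma adjusted p = 0.57), and Apc in WT mice by -0.15 ± 0.07 (SE, limma adjusted p = 0.35). Frat1 changed by -0.08 (95% interval -0.22 to 0.06) in HT mice and by 0.05 (-0.10 to 0.19) in WT mice. The fluoxetine by genotype interaction called 0 of the 10 and 0% of all genes, with 1 of the 10 and 967 of all genes at an unadjusted p below 0.05 and 0 of all genes by edgeR or DESeq2. The gene among the 10 was Ctnnb1 (-0.09, 95% interval -0.17 to -0.02, limma adjusted p = 0.86). Its lithium and fluoxetine interactions use the same vehicle libraries and are not separate observations.

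**Figure D3:**
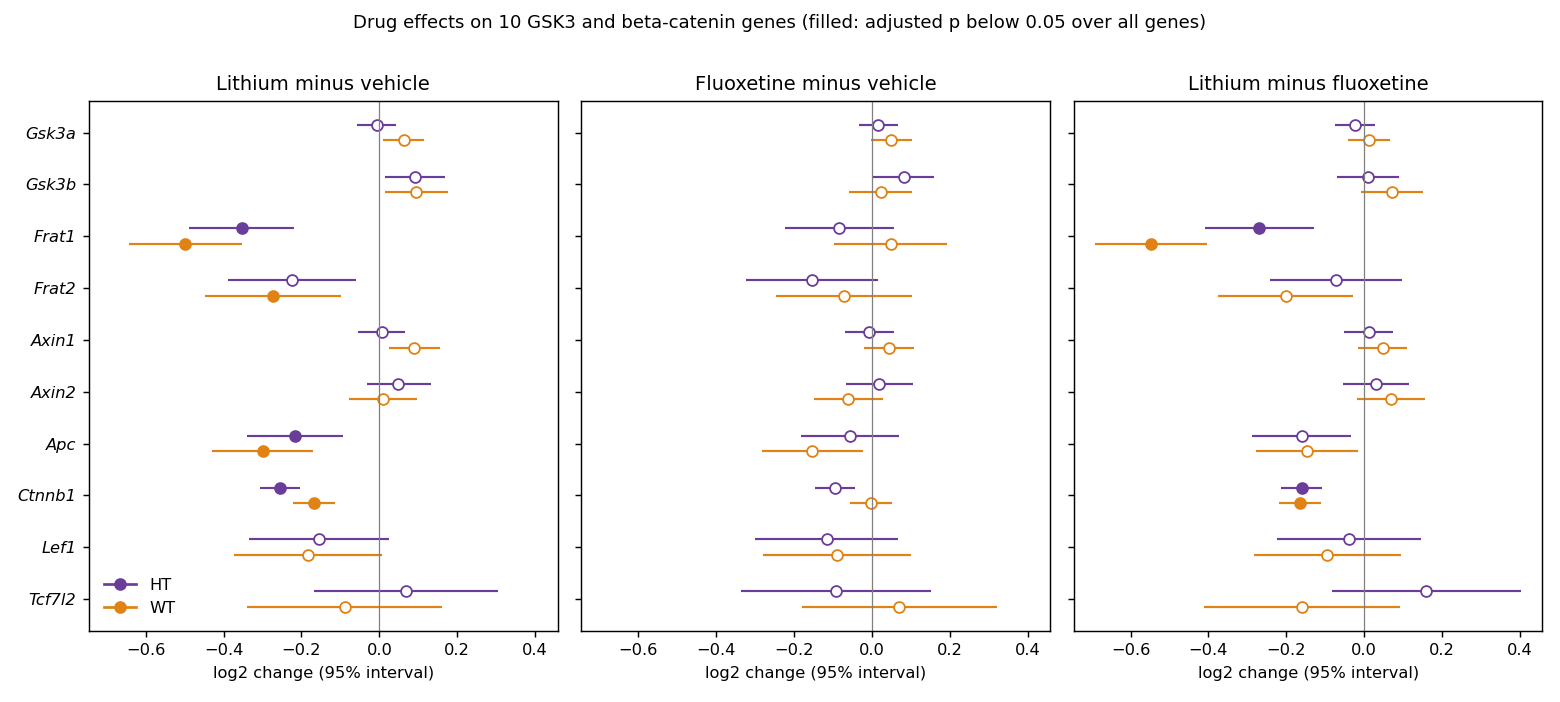
Log2 change of the 10 genes with its 95% interval for lithium minus vehicle, fluoxetine minus vehicle and lithium minus fluoxetine, HT above WT for each gene; filled points have a limma adjusted p below 0.05 over all genes. Ctnnb1 and Frat1 are filled in both genotypes for lithium minus vehicle and for lithium minus fluoxetine, and no point is filled for fluoxetine minus vehicle.

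Lithium and fluoxetine share their vehicle libraries, so the drugs were also compared directly. In this comparison 2 of the 10 genes were called in each genotype, both lower under lithium, against 1% of all genes in HT mice (0.422% lower) and 1.05% in WT mice (0.321% lower). Those genes were Ctnnb1 and Frat1. Ctnnb1 differed by -0.16 ± 0.03 in HT mice (SE, limma adjusted p = 4.9e-04) and by -0.17 ± 0.03 in WT mice (SE, limma adjusted p = 4.0e-04), and 19 of 19 lithium libraries were below the mean of their fluoxetine group. Frat1 differed by -0.27 ± 0.07 in HT mice (SE, limma adjusted p = 0.04) and by -0.55 ± 0.07 in WT mice (SE, limma adjusted p = 1.2e-05), where it had the smallest p of all genes tested. Apc, called against vehicle in both genotypes, was not called against fluoxetine, with differences of -0.16 (95% interval -0.29 to -0.03) in HT mice and -0.15 (-0.28 to -0.02) in WT mice. The Frat1 call in HT mice was close to the threshold: adjusted p reached 0.093 when single libraries were left out, with differences of -0.31 to -0.24, and 0.13 without the 21 libraries, with a difference of -0.26.

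None of the 10 genes passed the threshold between genotypes. HT and WT mice differed in 0 of the 10 under lithium, under fluoxetine and under vehicle, while 0.0337%, 0.0112% and 0.00562% of all genes were called under these treatments in that order. The single gene called under vehicle was Scn2a. Ctnnb1 in vehicle mice was higher in HT by 0.08 ± 0.03 on the log2 scale (SE, unadjusted p = 0.0021, limma adjusted p = 0.25), with 9 of 10 HT libraries above the WT mean. At an unadjusted p below 0.05 there were 0 of the 10 under lithium, 1 under fluoxetine and 3 under vehicle, beside 1832, 700 and 1765 of all genes, and edgeR and DESeq2 on recovered reads called 0 of the 10 in each.

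Beyond the core, 170 other genes of the Wnt and GSK3 pathways were tested, in 12 lists by role, out of 182 listed. Their calls come from the fit with all libraries and were not followed gene by gene without the libraries rich in olfactory or striatal transcripts. Under lithium 8 were called higher and 4 lower in HT mice, 7.06% of the 170, and 9 higher and 0 lower in WT mice, 5.29%. These shares stand beside 8.77% and 5.71% of all genes, and the median log2 change of the 170 genes was 0.004 in both genotypes. Among Wnt ligands (13 tested), secreted Wnt antagonists (11), R-spondins (3), Wnt secretion genes (2) and adherens junction partners of beta-catenin (15), none was called in either genotype.

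Of 22 nuclear partners of beta-catenin, 5 were called in HT mice, 22.7% against 8.77% of all genes. This was the highest share among the 12 lists in either genotype. Chd8, a chromatin remodeller known to bind beta-catenin, rose by 0.15 ± 0.03 on the log2 scale (SE, limma adjusted p = 3.8e-04). The acetyltransferase genes Ep300 (0.15, limma adjusted p = 0.0081) and Crebbp (0.14, limma adjusted p = 0.016) and the Mediator subunit Med12 (0.18, limma adjusted p = 0.016) also rose. The fifth, Ctnnbip1, which encodes an inhibitor of the binding of beta-catenin to TCF, fell by 0.15 (limma adjusted p = 0.018) and is named because of that count. In WT mice 1 of the 22, the corepressor gene Tle4, was called, with a rise of 0.17 (limma adjusted p = 0.0455). That is 4.55% of the list, against 5.71% of all genes.

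Of 22 other genes in the list of destruction complex kinases, phosphatase and ligase, Csnk1g2 (-0.13, limma adjusted p = 0.018) and Skp1a (-0.09, limma adjusted p = 0.031) were lower in HT mice. That is 9.09% of the 22, against 8.77% of all genes. In WT mice 3 were higher, 13.6% of the 22 against 5.71% of all genes. They were the phosphatase subunit gene Ppp2r5c (0.10, limma adjusted p = 0.01) and Btrc (0.14, limma adjusted p = 0.017) and Fbxw11 (0.11, limma adjusted p = 0.026), whose products recognise phosphorylated beta-catenin for ubiquitination. Among 24 receptors and co-receptors, Lrp6 rose in HT mice (0.12, limma adjusted p = 0.018). Among 11 genes of Dishevelled and membrane signalling, Dvl3 rose in HT mice (0.09, limma adjusted p = 0.027) and Prickle1 in WT mice (0.13, limma adjusted p = 0.026). The receptor call was 4.17% of its list in HT mice, and the Dishevelled calls were 9.09% of theirs in each genotype.

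Of 18 genes for GSK3 substrates, Tsc2 and Gys1, the glycogen synthase gene of muscle and brain, were called in both genotypes. That is 11.1% of the list, against 8.77% of all genes in HT mice and 5.71% in WT mice. Tsc2 rose by 0.11 ± 0.02 in HT mice (SE, limma adjusted p = 6.1e-04) and 0.09 ± 0.02 in WT mice (SE, limma adjusted p = 0.014). Gys1 rose by 0.12 in HT mice (limma adjusted p = 0.018) and by 0.11 in WT mice (limma adjusted p = 0.043). Among 16 regulators upstream of GSK3, Akt2 fell in HT mice (-0.12, limma adjusted p = 0.04) and Sgk1 rose in WT mice (0.25, limma adjusted p = 0.0421). Each is 6.25% of that list. Of 19 Wnt target genes tested besides Axin2, 0 were called in HT mice. There 3 had an unadjusted p below 0.05, beside 4145 of all genes. In WT mice 1 was called, 5.26% of the list. That gene was the cyclin gene Ccnd2, which rose by 0.26 ± 0.07 (SE, limma adjusted p = 0.023). The medians of the 19 were -0.02 in HT mice and -0.03 in WT mice.

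**Figure D4:**
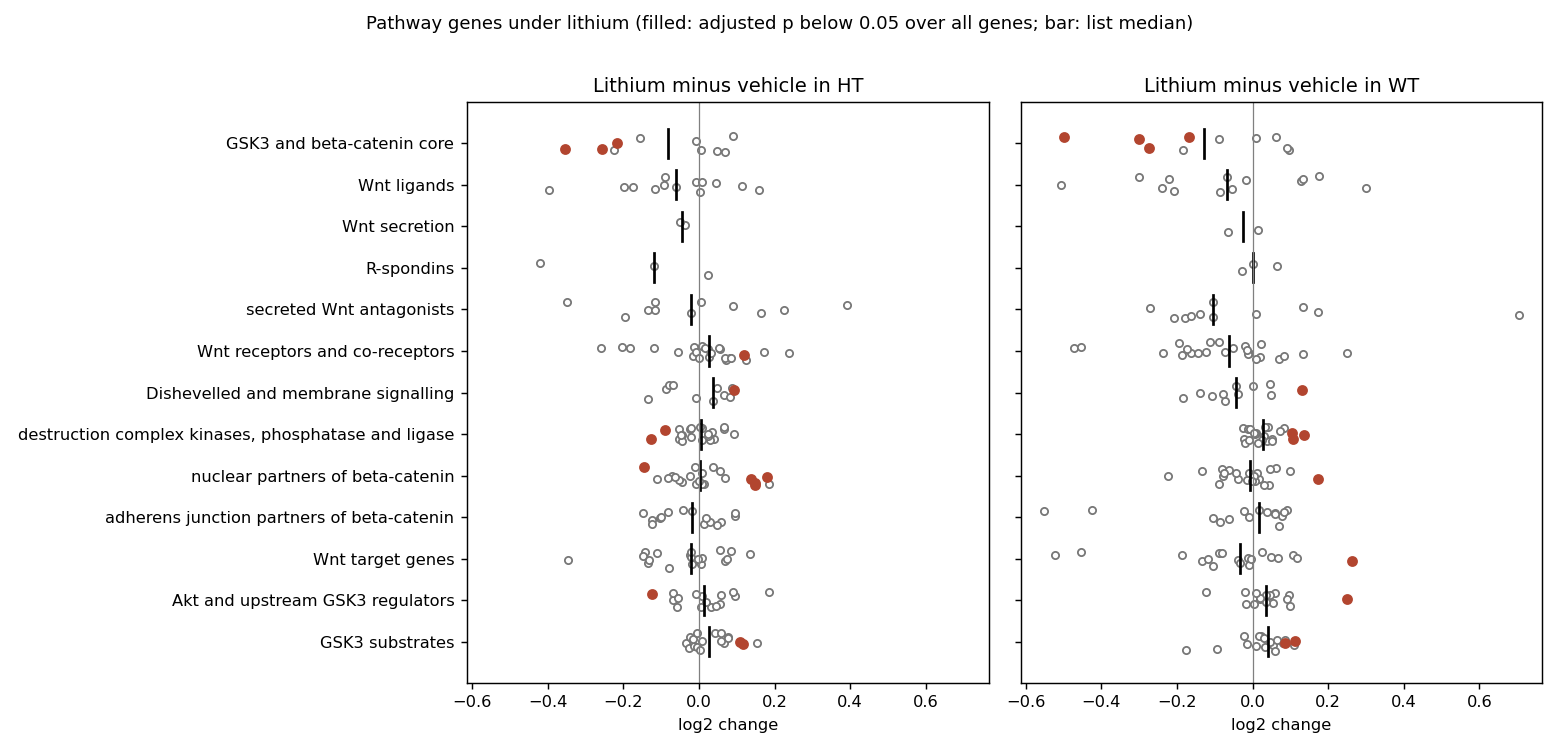
Log2 change under lithium of the 10 core genes (top row) and of the genes in 12 Wnt and GSK3 lists, in HT mice (left) and WT mice (right); filled points have a limma adjusted p below 0.05 over all genes and bars mark list medians. The core row holds 3 filled points in HT and 4 in WT mice, all below 0, and the Wnt target row holds 0 and 1.

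Some markers of other cell types moved with lithium in the same libraries. Meningeal markers were lower in 7 of 7 genes in both genotypes (median log2 change -0.14 in HT and -0.32 in WT mice, with 0 and 2 called). Their summed normalised reads were 4046 to 6473 in HT lithium and 4607 to 8051 in HT vehicle libraries, and 4320 to 6853 in WT lithium and 5309 to 8346 in WT vehicle libraries. Microglial markers were lower in 8 of 8 genes in both genotypes (medians -0.07 in HT and -0.14 in WT mice, 1 called in each), with sums of 9209 to 10933 in HT lithium, 9372 to 12205 in HT vehicle, 8223 to 11398 in WT lithium and 9787 to 11587 in WT vehicle libraries. Endothelial markers were lower in 7 of 10 genes in both (medians -0.14 in HT and -0.06 in WT mice). Of these, 3 were called lower and 1 higher in HT mice and 2 lower in WT mice, with sums of 8185 to 9873 in HT lithium, 8156 to 11494 in HT vehicle, 8781 to 10748 in WT lithium and 9132 to 11629 in WT vehicle libraries. The shares called in HT and WT mice were 0% and 28.6% for meningeal, 12.5% and 12.5% for microglial, and 40% and 20% for endothelial markers. Over all genes 8.77% were called in HT mice and 5.71% in WT mice. None of these 3 lists held a marker at 0 in any library.

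With the mean log2 scores of those 3 lists as covariates, an alternative chosen after seeing the data, Ctnnb1 changed by -0.28 in HT mice (limma adjusted p = 4.6e-10) and -0.18 in WT mice (limma adjusted p = 0.001). Frat1 changed by -0.36 in HT mice (limma adjusted p = 0.0023) and -0.47 in WT mice (limma adjusted p = 0.0043). Apc was no longer called, at -0.12 in HT mice (limma adjusted p = 0.17) and -0.24 in WT mice (limma adjusted p = 0.054). In WT mice, olfactory bulb markers were lower in 17 of 17 genes (median -0.48) and striatal markers higher in 14 of 14 (median 0.28). None of these markers was called, against 5.71% of all genes. Their sums were 6378 to 14082 in WT lithium against 6510 to 32337 in WT vehicle libraries for the olfactory bulb, and 12326 to 28940 against 11969 to 19512 for the striatum. In HT mice 13 of 17 olfactory markers were higher and 10 of 14 striatal markers lower. Eomes and Tbx21, markers of olfactory bulb projection neurons, were at 0 in at least 1 library each, and so were the striatal markers Six3 and Sh3rf2. With the olfactory, striatal and thalamic scores as covariates, Ctnnb1 changed by -0.27 in HT mice (limma adjusted p = 8.8e-10) and -0.18 in WT mice (limma adjusted p = 2.9e-04). Lef1, which was not called in any of these fits, changed under the endothelial, microglial and meningeal covariates by -0.03 in HT mice (limma adjusted p = 0.9) and by -0.05 in WT mice (limma adjusted p = 0.88).

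The genes whose levels followed Ctnnb1 most closely over the 56 libraries were Pnck, Chd3, Eif4h, Tmem91 and Pebp1, by Pearson correlation of log2 values. Pnck, a calmodulin-dependent kinase gene, had r = 0.85 and Spearman rho = 0.79, and r = 0.56 within groups, that is, after the mean of each group was removed. Chd3, a chromatin remodeller gene, had r = 0.79, rho = 0.74 and a within-group r of 0.61. Eif4h, a translation initiation factor gene, had r = 0.78, rho = 0.81 and a within-group r of 0.31. Of the core genes, Frat1 had the closest pattern (r = 0.65, rho = 0.61), ranked 26th of all genes, but within groups its r was 0.04. Gsk3b had r = -0.45, and -0.18 within groups. Apc had r = 0.38, but -0.21 within groups. These values describe libraries that share lithium treatment, size-factor scaling and possibly dams.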

How the data were processed

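Libraries of prefrontal cortex RNA came from a stranded TruSeq kit for mRNA, as the labels state. The submitters' processing notes name DESeq2 1.19.11, Salmon 0.11.2, R 3.6.0 and build GRCm38, without the role of each. Each deposited value is a signal that the authors made by dividing a read count by 1 size factor per library (0.818 to 1.23). This was checked on the values: at a tolerance of 0.01 reads, 100% were whole multiples of a common step. The check could not tell whole reads in 3 libraries whose step was close to 1 (HT vehicle males 2 and 5, HT lithium female 5). Depth was 24.3 to 36.4 M reads, and no 2 libraries were identical.

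In R 4.3.3, limma 3.58.1 (trend and robust settings) used log2(value + 1) of all 56 libraries and estimated 1 mean per group, for 12 groups of genotype, treatment and sex. Genes with a value of at least 10 in at least 4 libraries were tested (17778 genes, 310 left out, 44 residual degrees of freedom). Effects are means over the sexes, p-values are Benjamini-Hochberg adjusted over all genes tested, and fold changes of low genes are understated on this scale. Errors beside log2 changes are standard errors. Coordinates and exon lengths are from GENCODE vM21, and symbols were found for 18077 of 18088 gene IDs. The code was tested on simulated data. Alternatives were TMM rescaling, voom, no filter, pseudocounts of 0.5 and 5, only the groups compared, a replicate block, edgeR 4.0.16 and DESeq2 1.42.0 on recovered reads, marker covariates, leaving out the 21 libraries, and leaving out each library. The 10 genes, the pathway lists and the marker lists were chosen with earlier results of these data known. Named pathway genes are the called ones, at most 4 per list and genotype by smallest p, and the 5 genes most like Ctnnb1.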

Additional observations from a re-analysis of the deposited data

Results flagged for a closer look

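Of 120 sets of values (10 genes in 12 groups of 4 or 5 libraries), 4 held a library far from the rest of its group. About 1 in 20 sets is marked in this way by chance. Frat1 in HT vehicle female 4 had 207.3 normalised reads, the lowest of 5, where the others had 232.1 to 240.1. Frat2 in HT vehicle male 1 had 145.2, the lowest of 5, where the others had 169.0 to 176.3. Ctnnb1 in WT fluoxetine female 1 had 17844.5, the highest of 4, where the others had 17215.7 to 17299.3. Frat1 in WT vehicle female 3 had 307.2, the highest of 5, where the others had 210.1 to 234.9. In 0 of 60 pairs of groups did every library of one group move against every library of the other.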

How the results depend on the processing

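Of the 10 genes, 2 were called for lithium minus fluoxetine in HT mice, and 1 with only the groups compared in the fit and without the 21 libraries rich in olfactory or striatal transcripts. That number ran from 1 to 2 when single libraries were left out, at 1 without HT fluoxetine females 2, 3 and 4, HT fluoxetine males 2, 3 and 4, HT lithium females 2, 4 and 5, and HT lithium males 1, 2 and 3. Under lithium in WT mice 4 were called, and 1 without the 21 libraries. With endothelial, microglial and meningeal scores as covariates, chosen after seeing the data, 2 were called in WT mice and 3, in place of 5, for lithium averaged over genotypes. The cause was not tested. The numbers called in the other comparisons stayed within 1.5 times, and no called change turned its direction under any alternative run. Apc in HT mice also missed the threshold with only the groups compared (adjusted p = 0.073). Frat2 under lithium in HT mice was called without HT lithium female 3, HT lithium male 1 or HT vehicle female 3, without the 21 libraries (-0.37, adjusted p = 0.026) and with the olfactory, striatal and thalamic scores (-0.22, adjusted p = 0.037), and Lef1 averaged over genotypes in 7 of 56 single omissions. Without the 21 libraries the genes called over the whole table fell to 505 in HT and 73 in WT mice, in place of 1560 and 1016, where fewer libraries entered the fit. With the endothelial, microglial and meningeal scores they were 1160 and 97, and with the olfactory, striatal and thalamic scores 2085 and 406. DESeq2 called 13 genes under fluoxetine in HT and 127 in WT mice, in place of 8 and 26. Upward calls under lithium in WT mice made up 58.1% with TMM, 56.2% with edgeR and 67.1% in the reported analysis.

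The replicate numbers of the sample titles showed little sign of pairing libraries across groups. Of 292 pairs with the same number, 24 had deviations that correlated above 0.1, with a median r of -0.002. Of 56 libraries, 11 correlated best with their own number. WT fluoxetine female 4 and WT lithium females 2, 3 and 4 carry other numbers in their library names, and pairing by those names was not tested. With a replicate block, lithium called 1588 genes in HT and 1055 in WT mice, the counts among the 10 stayed within 1.5 times, and Frat2 in WT mice missed the threshold (adjusted p = 0.058). Depth and the number of libraries limit the smallest change that can be called.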
